A study of Caenorhabditis elegans with 12 samples.

Results

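The central stretch of chromosome V, between 5.90 and 16.55 Mb of genome build ce10, held 225 sites under 8000 bp wide at which MRG-1 was called in all 6 samples. The sites were chosen from the peak calls themselves. Peaks of 6 lists were merged where they overlapped by at least 1 bp, and a merged site was a member if it had a peak of all 6 samples, was under 8000 bp wide and had its midpoint in the window. They were 225 of 8226 merged sites in the genome, 3578 of which had a peak of all 6 samples.

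The series is a chromatin immunoprecipitation sequencing (ChIP-seq) study of MRG-1 in whole *C. elegans* at the L4 larval stage. Immunoprecipitates came from the germline mutant *glp-4(bn2)* (strain SS104, n = 3) and from the wild-type Bristol strain N2 (n = 3), all made with the same MRG-1 antibody. The labels give 15° for maintenance of both strains and 25° for growth of the synchronized larvae. The *bn2* allele is temperature-sensitive and animals raised at 25° have almost no germ cells, so the comparison of the strains asks where MRG-1 is bound when most germ cells are missing. The lists hold no measure of how many germ cells the animals had. Neither label nor method states whether replicates were separate cultures, so any p-value measures only the spread between these samples, which may be technical. In whole animals, fewer cells of a type and less binding per cell cannot be told apart.

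MRG-1 belongs to the MRG family of chromodomain proteins, whose mammalian member MRG15 binds nucleosomes carrying H3K36 methylation, the mark left over the bodies of transcribed genes. Worms without maternal MRG-1 fail to form a normal germline. Each worm autosome has a central region of low recombination, dense in conserved and broadly expressed genes, between arms that recombine more and hold more repeats and more H3K9 methylation. The sites described here lie in that central region of chromosome V.

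Each site was described in each list by its fold, its fold percentile and its called bases. Its fold is the highest fold enrichment over background that the peak caller gave to any of its peaks. Its fold percentile is the share of all peaks of that list with a fold at or below it, and therefore needs no scaling between lists. Its called bases are the bases of the site that lie inside peaks of that list.

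The sites were spread over the whole window, at a lower density than in the centres of chromosomes II and III. The window of 10.65 Mb held 21.1 shared sites per Mb, against 31.4 per Mb in the chromosome II centre (224 sites between 4.88 and 12.02 Mb) and 36.3 per Mb in the chromosome III centre (240 sites between 3.72 and 10.34 Mb). The arms of chromosome V, 10.256 Mb long together, held 209 such sites or 20.4 per Mb. The borders of the chromosome II and III windows were set for this comparison, and these densities follow from calls and position alone, so they are given with no test.

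In 21 consecutive bins of 0.5 Mb, leaving out the shorter end of the window, the V centre held 4 to 19 sites with a median of 10. The fullest bins lay at 11.9 to 12.4 Mb and at 13.4 to 13.9 Mb, with 19 sites each, and the emptiest at 8.9 to 9.4 Mb and at 15.9 to 16.4 Mb, with 4 sites each. No bin was empty, whereas bins on the arms of chromosome V ran between 0 and 26 sites with a median of 8. Bins of the chromosome II centre held 7 to 25 sites (median 13.5) and bins of the chromosome III centre 12 to 30 (median 17).

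**Figure D1:**
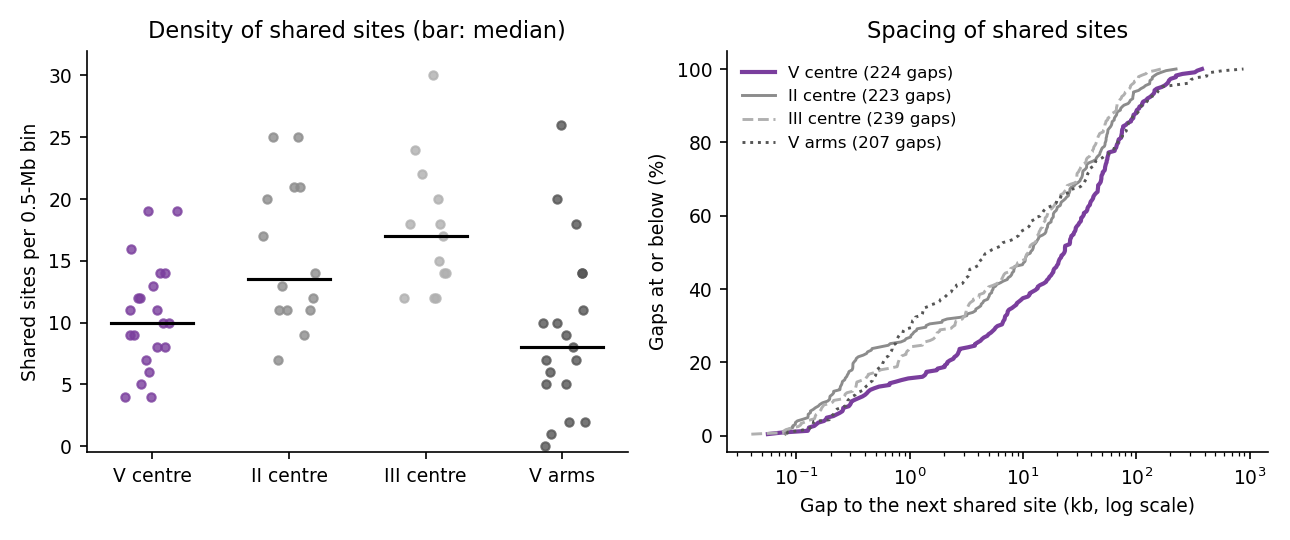
Left, number of shared sites under 8000 bp in each 0.5-Mb bin (1 point per bin, bar at the median) for the V centre, the II centre, the III centre and the V arms. Right, cumulative percentage of the gaps between neighbouring shared sites, with the gap in kb on a log axis. The V centre has a median of 10 sites per bin, and its gaps lie to the right of those of the other regions over most of their range (median 23329 bp).

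Neighbouring members were separated by a median gap of 23329 bp (quartiles 3929 and 55006 bp, 224 gaps). The median gap was 11723 bp in the II centre, 11286 bp in the III centre and 5038 bp on the V arms. The arms thus had nearly the same density as the V centre with much shorter typical gaps, since their sites stood in tight groups separated by long empty stretches of up to 883162 bp. In the V centre 35 of 224 gaps (15.6%) were under 1 kb, compared with 26.5% in the II centre, 23.4% in the III centre and 29.0% on the arms. Gaps over 100 kb numbered 26 in the V centre and 26 on the arms, 14 in the II centre and 8 in the III centre. The gap is measured to the next member, and wider shared sites or sites of fewer samples could lie inside it.

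The longest gap, 379921 bp, ran from the site at chrV:8790873-8795389 to the site at chrV:9175311-9178453. The closest pair, chrV:15510423-15511589 and chrV:15511646-15514186, was separated by 56 bp. The first of this pair had folds of 3.24, 3.84 and 3.08 in *glp-4(bn2)* replicates 1 to 3, against 3.33, 3.28 and 3.33 in N2 replicates 1 to 3. Its neighbour had folds of 5.02, 6.06 and 5.38 in *glp-4(bn2)*, against 6.12, 7.38 and 5.80 in N2. The neighbour was above it in all 6 lists, and each of the pair was called as a single peak in every list.

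The window also held binding that the rule left out. Of 608 merged sites of any kind in the window, 275 (45.2%) were shared by all 6 samples, and 50 of those were 8000 bp or wider. A further 73 sites had peaks of more than 1 *glp-4(bn2)* sample and of no N2 sample (6.85 per Mb). Another 72 had peaks of more than 1 N2 sample and of no *glp-4(bn2)* sample (6.76 per Mb). The 114 sites called in a single sample are in neither count. The corresponding densities were 5.88 and 9.66 per Mb in the II centre, 6.65 and 16.0 per Mb in the III centre, and 5.56 and 9.36 per Mb on the V arms. A site of *glp-4(bn2)* alone lay within 1 kb of 3 members (1.33%), while a site of N2 alone lay within 1 kb of 28 (12.4%). The same shares were 1.34% and 10.7% in the II centre, 1.25% and 18.3% in the III centre, and 1.44% and 8.13% on the V arms.

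Members had a median width of 3533 bp, with quartiles of 2507 and 5166 bp. Of the 225, 10 were under 1000 bp wide, 118 were between 1000 and 4000 bp and 97 were 4000 bp or wider. The median width was 3357 bp in the II centre, 3668 bp in the III centre and 1765 bp on the V arms, where the upper quartile was 3190 bp. Together the members covered 0.861 Mb, or 8.08% of the window. The shares covered were 11.9% in the II centre, 13.7% in the III centre and 4.78% on the V arms.

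The widest member, chrV:12283918-12291907 at 7990 bp, was also among the strong ones. Its folds were 7.27, 10.1 and 7.17 in *glp-4(bn2)*, against 10.1, 9.61 and 9.45 in N2, and its fold percentile was 96.8 or higher in every list. The narrowest, chrV:16543675-16544204 at 530 bp, had folds of 1.65, 1.89 and 2.04 in *glp-4(bn2)*, against 2.48, 2.27 and 1.89 in N2. Over the 225 sites width and mean fold percentile had a Spearman correlation of 0.52. This is a description, since width and fold come from the same calls. Width had almost no relation to the difference between the strains (Spearman correlation -0.10 with the log2 difference given below).

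The limits of the rule cut through similar sites. The members nearest the width limit were 7990 and 7915 bp wide, and the narrowest shared sites left out, chrV:14998787-15006872 and chrV:7851814-7859951, were 8086 and 8138 bp wide, with fold percentiles of 95.4 to 99.1 and of 74.4 to 85.5 over the 6 lists. At the low border the first member, chrV:5913535-5917965, had percentiles of 93.4 to 98.5, and the nearest shared site outside, chrV:5839803-5842798, had 65.8 to 71.0 in *glp-4(bn2)* and 4.71 to 49.7 in N2. At the high border the last member, chrV:16545052-16545794, had percentiles of 26.5 to 45.2 in *glp-4(bn2)* and 60.6 to 64.7 in N2, and the nearest shared site outside, chrV:16803389-16805793, had 39.6 to 47.3 and 42.2 to 61.4.

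Sites of the window called in 5 of the 6 samples numbered 37. The missing sample was a *glp-4(bn2)* one at 16 of them and an N2 one at 21. Their mean fold percentile had a median of 35.9 and their width a median of 1354 bp, against 76.7 and 3533 bp for the members. A list with a call at a weak member was not necessarily far from the threshold: the lowest −log10 q-value at any member was 2.81, and 5 members had a list with a value under 5.

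Within the 6 lists the members ranked high. The median fold percentile of the 225 sites was 76.1, 76.9 and 76.2 in *glp-4(bn2)* replicates 1 to 3, against 81.0, 79.5 and 79.4 in N2 replicates 1 to 3. All N2 medians were above all *glp-4(bn2)* medians, with a difference of -3.56 points (*glp-4(bn2)* minus N2) between means of 76.4 ± 0.444 and 80.0 ± 0.899 (SD, n = 3 each). An exact two-sided permutation test gave p = 0.1, the smallest that 3 against 3 samples allow, so it could not pass 0.05. The rule itself favours high percentiles, since it asks for a call in all lists and a site takes the fold of its strongest peak.

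Members at or above the 90th percentile numbered 49, 47 and 49 in *glp-4(bn2)*, against 60, 56 and 54 in N2. Members below the 50th percentile numbered 39, 26 and 37 in *glp-4(bn2)*, against 26, 27 and 37 in N2. The first counts did not overlap between the strains and the second did. Over all 6 lists, 159 members were at or above the 50th percentile in every list, 37 were at or above the 90th in every list and 6 were below the 50th in every list. The 37 sites were 16.4% of the members, and 8.11% of all 3009 shared sites under 8000 bp met the same condition.

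With the width limit in place, the median fold percentile of the members was above that of shared sites elsewhere that passed the same rule of calls and width. In *glp-4(bn2)* the median percentile of the II centre was 74.3, 74.2 and 75.0, that of the III centre 71.2, 71.2 and 71.7, and that of the V arms 61.3, 64.8 and 59.3. In N2 the medians were 77.4, 78.6 and 77.2 in the II centre, 76.7, 75.8 and 75.3 in the III centre, and 63.5, 65.1 and 62.9 on the V arms. The V centre median was above the others in 6 of 6 lists in each comparison.

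Averaged over the 6 lists the members' median was 2.06 points above that of the II centre (SD 1.01), 4.54 points above that of the III centre (SD 0.695) and 15.4 points above that of the V arms (SD 1.98, n = 6 each). A two-sided exact sign-flip permutation test over the 6 lists gave p = 0.0312 for each, the smallest it allows, and p = 0.0469 after Benjamini-Hochberg adjustment over the 6 comparisons made. The sites are the same in every list, so these tests measure how repeatable the order was over samples. The difference from the II centre changed sign with no width limit (-0.499 points). Without that limit the difference was 1.51 points from the III centre and 17.5 points from the V arms. The limit left out 50 of 275 shared sites in the V centre, 86 of 310 in the II centre and 106 of 346 in the III centre. The II centre difference was 0.968 points without *glp-4(bn2)* replicate 1, 0.956 points without N2 replicate 1 and 0.992 points without N2 replicate 3. Its adjusted exact permutation p was 0.188 to 0.438 without these or N2 replicate 2, where those of the III centre and V arms were 0.075 to 0.125. With 5 lists no comparison could reach 0.05.

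The bases called per site differed clearly only from the arms. The median per member was 2653, 2962 and 2710 bp in *glp-4(bn2)*, against 3131, 3263 and 2982 bp in N2. The mean over the 6 lists, 2950 bp, was 1639 bp above the V arms (6 of 6 lists, adjusted exact permutation p = 0.0469), 103 bp above the II centre (5 of 6 lists, adjusted exact permutation p = 0.075) and 34.9 bp above the III centre (4 of 6 lists, adjusted exact permutation p = 0.5). With SDs over lists of 88.1 and 111 bp, the last 2 differences did not pass the test. They became -595 and -876 bp with no width limit. The sites were chosen by these same calls and by width, and are the same in every list. These p-values therefore measure only how repeatable the order was over samples.

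**Figure D2:**
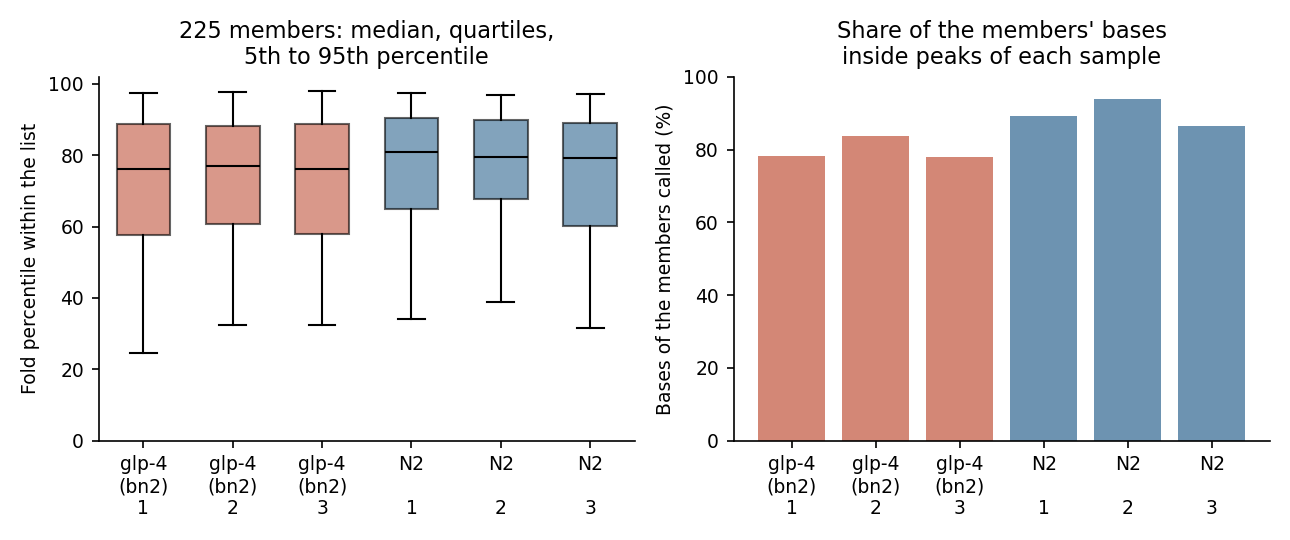
Left, fold percentile of the 225 members within each of the 6 lists (box: quartiles and median, whiskers: 5th to 95th percentile). Right, percentage of the members' bases inside peaks of each list. The *glp-4(bn2)* medians (76.1 to 76.9) and shares (77.9 to 83.8%) are below those of N2 (79.4 to 81.0, and 86.5 to 94.0%).

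The extent of the called sequence differed between the strains. Peaks covered 0.673, 0.722 and 0.671 Mb of the members in *glp-4(bn2)* replicates 1 to 3, against 0.769, 0.809 and 0.744 Mb in N2 replicates 1 to 3, which was 78.2, 83.8 and 77.9% of the members' bases in *glp-4(bn2)* and 89.4, 94.0 and 86.5% in N2. The strains did not overlap. Means were 0.689 ± 0.0287 Mb in *glp-4(bn2)* and 0.774 ± 0.0326 Mb in N2 (SD, n = 3 each), a difference of -0.0856 Mb with an exact two-sided permutation p = 0.1, the smallest possible.

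Site by site, 111 members (49.3%) had fewer called bases in every *glp-4(bn2)* list than in any N2 list, and 17 (7.56%) had more. Over all 3009 shared sites under 8000 bp these shares were 30.5% and 12.0%. The share with fewer bases was close to that of the II centre (49.1%) and the III centre (50.4%), and was 22.5% on the V arms and 25.1% over the remaining sites. The share for the V centre was thus above that of all shared sites and near that of the other 2 autosome centres, and no test was made between the regions.

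The background level behind the lists also separated the strains. The background read pileup per position that each list's p-values imply was 68.9, 60.6 and 68.9 in *glp-4(bn2)*, against 96.8, 88.9 and 77.2 in N2, with no overlap (exact permutation p = 0.1, the smallest possible). At a higher background level a smaller fold can pass the threshold, and the lowest fold of any peak was 1.23, 1.24 and 1.25 in *glp-4(bn2)* lists, against 1.19, 1.23 and 1.19 in N2 lists. Within a strain the level and the called bases were ordered differently. Replicate 2 had the most called bases of each strain, 0.722 Mb in *glp-4(bn2)* and 0.809 Mb in N2. Its level was the lowest of the strain in *glp-4(bn2)* (60.6) and the middle value in N2 (88.9). The part of this level in the number of called bases was not tested. The number of peaks per list did not separate the strains, at 7441, 7303 and 7584 in *glp-4(bn2)* and 7737, 7073 and 7407 in N2.

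Peaks called inside the members numbered 1.38, 1.20 and 1.43 per member in *glp-4(bn2)*, against 1.37, 1.14 and 1.39 in N2. The strains overlapped (difference 0.040, exact permutation p = 0.6), and replicate 2 of each strain had the fewest and widest peaks. At 106 members (47.1%) every list had a single peak, and these were narrower, with a median width of 2740 bp against 4303 bp for the rest.

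Most of the sequence was common to both strains, and the bases of 1 strain lay mainly at the edges. Bases called in all 6 lists made up 0.590 Mb, or 68.5% of the members. A base was assigned to 1 strain if more than 1 of its lists and no list of the other strain called it. This was counted at the members alone, so no share over other sites is given. Bases called in *glp-4(bn2)* lists only made up 16.9 kb (1.96%) and touched 41 members, 23 of them over at least 150 bp. Bases called in N2 lists only made up 77.9 kb (9.05%) and touched 178 members, 116 of them over at least 150 bp. Of these *glp-4(bn2)* bases, 82.2% lay before the first or after the last base of the member called in any N2 list. Of these N2 bases, 83.1% lay before the first or after the last base called in any *glp-4(bn2)* list.

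The largest totals of such bases at a member show how calls changed within a shared site. They were summed over the member and need not lie in a single stretch. At chrV:15043542-15047990, 2435 bp were called in *glp-4(bn2)* lists only. There the called bases were 3111, 4356 and 3307 in *glp-4(bn2)*, against 1011, 1009 and 788 in N2. At chrV:9323103-9328414, 2655 bp were called in N2 lists only, and the called bases were 2430, 2421 and 2465 in *glp-4(bn2)*, against 5169, 5312 and 5060 in N2. In both cases the 2 strains did not overlap and the values within a strain were close, apart from *glp-4(bn2)* replicate 2 at the first site. A single member, chrV:13989157-13991332, had no base common to all 6 lists: its peaks were chained together through partial overlaps.

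The position of highest signal was close between lists at most members. The summits of the 6 lists at a member fell within a median span of 334 bp, and within 214 bp at members with a single peak in every list, but at 54 members they spanned more than 1000 bp. The span was 148 bp within *glp-4(bn2)* and 133 bp within N2. The median summit of *glp-4(bn2)* was a median of 63 bp away from that of N2, and 17 members had a shift over 1000 bp. At the site chrV:7082268-7084945, 2678 bp wide, all 6 summits fell within 18 bp.

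The strongest members were strong in every list. By the highest lowest percentile over the 6 lists, the first was chrV:15392181-15397702, 5522 bp wide, with folds of 9.52, 10.9 and 7.27 in *glp-4(bn2)*, against 9.60, 9.79 and 9.21 in N2. Its percentiles were 98.6 to 99.7. It was followed by chrV:7082268-7084945, with folds of 9.05, 10.2 and 8.22 in *glp-4(bn2)*, against 9.30, 9.58 and 8.84 in N2. The folds as deposited overlapped between the strains at both sites. After the centring described below, all *glp-4(bn2)* values were above all N2 values at the second site, and the strain difference passed the test at neither (limma adjusted p = 0.460 and 0.122).

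The next in order were chrV:6013191-6020494, chrV:16022804-16028463 and chrV:9341874-9347161. Their lowest fold in any list was between 7.39 and 8.54, and their percentiles were 97.5 or higher throughout. None of the 5 strongest was called different between the strains, with log2 differences between -0.09 and 0.16. They lay far apart, from the low to the high end of the window.

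At the other end, chrV:12653527-12657156 had the lowest percentile of any member in its weakest list. Its percentiles were 50.2, 15.1 and 63.2 in *glp-4(bn2)*, against 15.3, 37.9 and 0.905 in N2, so the samples of a strain differed widely and the strains overlapped. Next came chrV:15043542-15047990, with 19.4, 66.7 and 67.3 in *glp-4(bn2)* and 13.4, 32.1 and 3.21 in N2, and chrV:14113339-14114652, with 15.7, 4.46 and 22.1 in *glp-4(bn2)* and 26.5, 43.8 and 22.6 in N2. Members thus ran from the very top of the lists to near their lowest folds.

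For single sites the strains were compared on the log2 fold, with each list centred on its median over all 3578 shared sites. This centring removed a shift of -0.17 between *glp-4(bn2)* and N2 lists (a ratio of 0.890), and every difference below is relative to it. The model was limma with a trend, fitted over the 3578 sites, with Benjamini-Hochberg adjustment over all of them and a threshold of 0.05. Before centring, the members' median fold was 3.46, 4.03 and 3.34 in *glp-4(bn2)*, against 4.66, 4.43 and 4.25 in N2. Their median centred difference was -0.04 (quartiles -0.17 and 0.08), beside -0.01 over all shared sites, with 131 members below 0 and 94 above.

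Across the 225 sites the lists ranked the members alike. Pearson correlations of log2 fold were 0.959 to 0.967 between *glp-4(bn2)* lists, 0.934 to 0.975 between N2 lists and 0.873 to 0.906 between lists of different strains. These are descriptions over sites of the same lists, which also share the caller and its background model. The median absolute difference between the strains was 0.13 on the log2 scale, and the median standard error of a member's difference was 0.10. Only 2 members differed by more than 1 on that scale.

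In this fit 18 members (8.00%) had a higher relative fold in *glp-4(bn2)*, compared with 12.3% of all shared sites. Another 25 (11.1%) had a lower one, compared with 6.79% of all. Among shared sites under 8000 bp, the lower share was 11.2% in the II centre, 10.0% in the III centre and 6.70% on the V arms. The higher share was 10.3% in the II centre, 11.7% in the III centre and 12.0% on the V arms. The lower share of the V centre was thus above that of all shared sites and near those of the II and III centres. No test was made between the regions. Groups that did not overlap at all gave 27 members (12.0%) with *glp-4(bn2)* above N2, beside 18.4% of all, and 43 (19.1%) with *glp-4(bn2)* below N2, beside 18.0%. The 18 differences that were higher ran between 0.31 and 1.17 with a median of 0.59, and the 25 that were lower between -1.05 and -0.23 with a median of -0.40.

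The balance of the directions depended on the reference level. Centring on autosomal shared sites gave 26 higher and 11 lower members, centring on all peaks of each list gave 13 and 44, and testing the within-list percentile gave 25 and 14. Higher and lower are therefore statements relative to the median shared site of the genome. No called member changed the sign of its difference in the 11 other fits run on the same sites, where 9 of the higher and 4 of the lower members passed the threshold every time. With the sites merged again from 5 lists, leaving out a sample gave 12 to 23 higher and 12 to 31 lower members, and the lower count was 15, 14 or 13 without *glp-4(bn2)* replicate 3, 2 or 1 and 12 without N2 replicate 1.

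**Figure D3:**
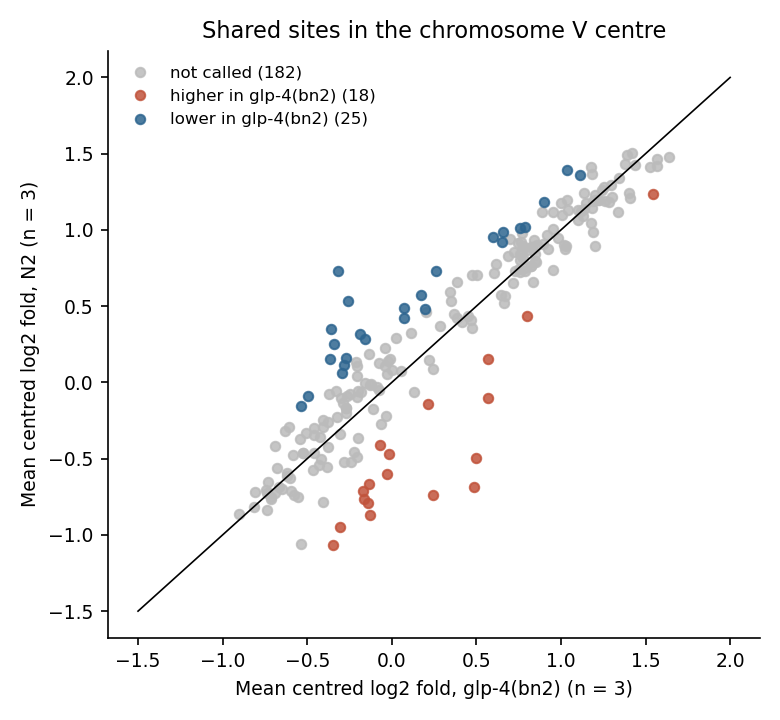
Mean centred log2 fold of each of the 225 members in *glp-4(bn2)* (horizontal axis, n = 3) and in N2 (vertical axis, n = 3), with the line of equal values. The 18 members called higher in *glp-4(bn2)* lie below the line and the 25 called lower lie above it, and most of the 18 have N2 values under 0.

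The members with a higher relative fold covered a wide range of strengths in N2. Their mean percentile had a median of 69.0 in *glp-4(bn2)* and 46.1 in N2, where it ran between 16.2 and 95.8 and was under 50 at 10 of the 18. For the members with a lower relative fold the medians were 72.3 in *glp-4(bn2)* and 82.0 in N2, and for the 182 members not called they were 79.5 and 81.2. These percentiles restate the contrast that defined the calls and carry no test.

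The largest difference was at chrV:12649910-12650864, a member only 955 bp wide. Its folds were 4.20, 4.97 and 3.81 in *glp-4(bn2)*, against 2.50, 1.75 and 2.26 in N2. All mutant values were above all wild-type values, and the centred log2 difference was 1.17 ± 0.14 (SE, limma adjusted p = 1.19e-04). It kept its call when any 1 sample was left out, and its summits in the 6 lists fell within 83 bp. The member with the lowest percentile in a single list, chrV:12653527-12657156, starts just beyond it.

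Second came chrV:8774238-8776803, with folds of 4.75, 4.89 and 3.52 in *glp-4(bn2)*, against 2.47, 2.41 and 2.48 in N2. The difference was 0.99 ± 0.12 (SE, limma adjusted p = 1.22e-04), and the N2 values were nearly equal. In *glp-4(bn2)* 2196, 2418 and 2324 bp of it were called, against 960, 1023 and 979 bp in N2. The next called member, chrV:8790873-8795389, lay 14.1 kb further and was also higher, with folds of 2.82, 2.75 and 2.82 in *glp-4(bn2)*, against 2.05, 1.97 and 1.98 in N2 (0.65 ± 0.12, limma adjusted p = 0.00155). Both groups were tight and separate there, and this is the member at the low end of the longest gap.

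The site chrV:7465704-7470869 had folds of 3.68, 4.32 and 3.05 in *glp-4(bn2)*, against 2.23, 1.82 and 2.19 in N2 (0.98 ± 0.13, limma adjusted p = 1.87e-04). It was called as 2, 1 and 1 peaks in *glp-4(bn2)* and as 3, 3 and 2 shorter peaks in N2. Smaller differences were found at chrV:10941290-10943935, with folds of 2.39, 3.18 and 2.92 in *glp-4(bn2)*, against 1.95, 1.78 and 1.96 in N2 (0.74 ± 0.12, limma adjusted p = 9.86e-04). Both sites kept their calls whichever sample was left out.

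The fifth, chrV:15043542-15047990, was less secure. Its folds were 1.72, 2.99 and 2.76 in *glp-4(bn2)*, against 1.60, 1.89 and 1.47 in N2, so that *glp-4(bn2)* replicate 1 lay below N2 replicate 2 before centring. The difference was 0.72 ± 0.17 (SE, limma adjusted p = 0.00773), and without *glp-4(bn2)* replicate 3 it lost its call (limma adjusted p = 0.0542).

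**Figure D4:**
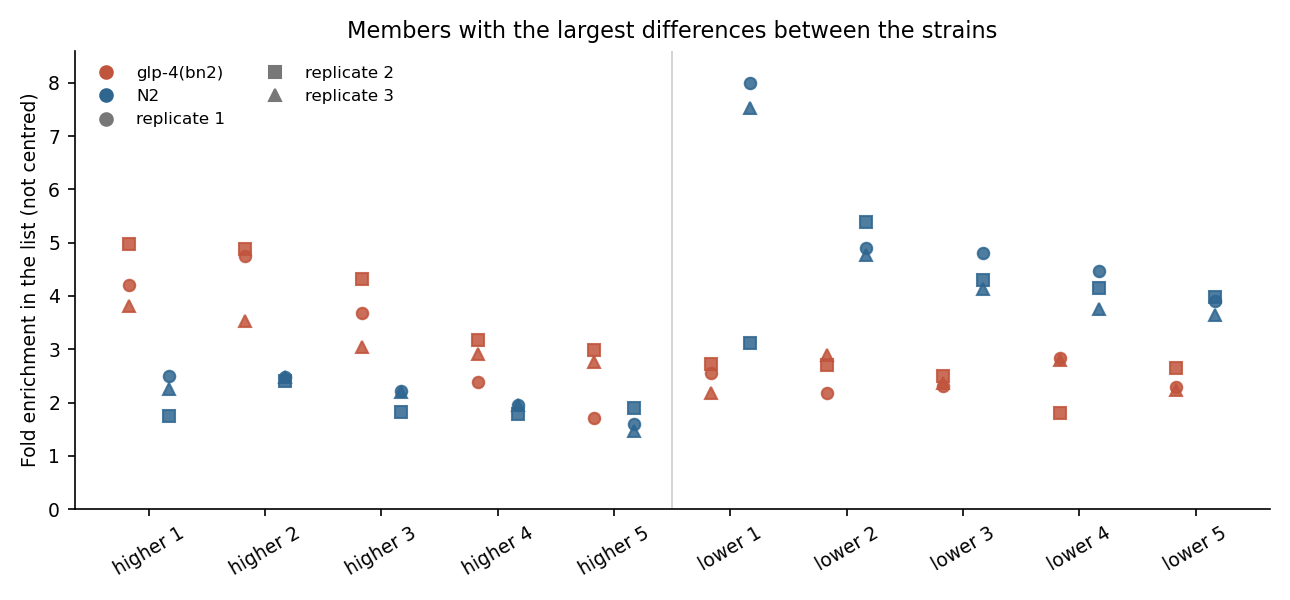
Fold enrichment, not centred, of each of the 6 lists at the 5 members with the largest positive and the 5 with the largest negative difference, ordered by its size from left to right in each direction. Symbols give the replicate. The strains overlap only at the fifth higher site, and at the first lower site N2 replicate 2 (3.11) stands near the *glp-4(bn2)* values (2.17 to 2.72).

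The most negative difference, at chrV:6096081-6101543, rested on N2 replicates that disagreed. Its folds were 2.55, 2.72 and 2.17 in *glp-4(bn2)*, against 7.99, 3.11 and 7.53 in N2. N2 replicate 2 stood much nearer to the mutant values than to the other wild-type values. The difference was -1.05 ± 0.27 (SE, limma adjusted p = 0.0142), and the call was lost without *glp-4(bn2)* replicate 2, without *glp-4(bn2)* replicate 3 and without N2 replicate 1 (limma adjusted p = 0.0575, 0.0702 and 0.0541). The strains' median summits were 3135 bp apart, with a span of 100 bp within *glp-4(bn2)* and 3151 bp within N2. All 6 summits spanned 3233 bp of this 5463-bp site. The summit of 1 N2 replicate thus lay near those of *glp-4(bn2)*, and the shift was not shared by all N2 replicates.

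At chrV:11610597-11612870 the replicates agreed better. Its folds were 2.18, 2.70 and 2.89 in *glp-4(bn2)*, against 4.89, 5.38 and 4.77 in N2, well apart, for a difference of -0.79 ± 0.12 (SE, limma adjusted p = 4.82e-04). In *glp-4(bn2)* 1505, 1168 and 1469 bp were called, against 2238, 2196 and 2213 bp in N2. At chrV:6593829-6599568 the folds were 2.32, 2.50 and 2.36 in *glp-4(bn2)*, against 4.81, 4.30 and 4.14 in N2 (-0.71 ± 0.11, limma adjusted p = 4.28e-04). Both sites kept the call in all 6 fits that left out a sample, and their median summits moved by no more than 169 bp.

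The remaining lower sites of the 5 were chrV:9419180-9423248 and chrV:10019621-10026796. The first had folds of 2.83, 1.80 and 2.80 in *glp-4(bn2)*, against 4.46, 4.15 and 3.75 in N2 (-0.59 ± 0.19, limma adjusted p = 0.0399), and kept the call only without *glp-4(bn2)* replicate 1 or without *glp-4(bn2)* replicate 3 (limma adjusted p = 0.0530 to 0.106 without each of the others). The second had folds of 2.29, 2.64 and 2.24 in *glp-4(bn2)*, against 3.90, 3.99 and 3.64 in N2 (-0.52 ± 0.10, limma adjusted p = 0.00246), and kept it in all 6. Called bases at the second were 3211, 4124 and 3642 in *glp-4(bn2)*, against 7042, 7023 and 6409 in N2, of which 2472 bp were in N2 lists only. Its median summits were 2105 bp apart, but the N2 summits spanned 2048 bp and all 6 summits 2177 bp. The summit of 1 N2 replicate thus lay near those of *glp-4(bn2)*.

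Members called in either direction were scattered over the window, but none was called higher beyond chrV:15043542-15047990. Of 42 pairs of called members next to each other in order, 7 were within 30 kb, and 4 of these had the same direction and 3 opposite directions. The 2 lower sites chrV:14646176-14651208 and chrV:14651337-14653350 were separated by 128 bp. Further on, the lower site chrV:14682569-14689299 was followed after 2695 bp by the higher site chrV:14691995-14696672, whose call was lost in every fit that left out a sample and in the fit with the replicate block (limma adjusted p = 0.0555).

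By bin, the median difference was between -0.15 and 0.19 in 20 of the 21 bins. The bin at 14.4 to 14.9 Mb stood lower, at -0.32, with 10 of its 14 members below 0, 6 called lower and 1 called higher. Of those 6, the site chrV:14682569-14689299 alone (-0.36, limma adjusted p = 0.00548) kept the call in all 6 fits that left out a sample, and it did not pass in all of the other fits. The bin at 9.9 to 10.4 Mb had 12 of 14 members below 0 and a median of -0.15. The bin at 14.4 to 14.9 Mb was picked out after its values were seen, and no test was made of it.

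**Figure D5:**
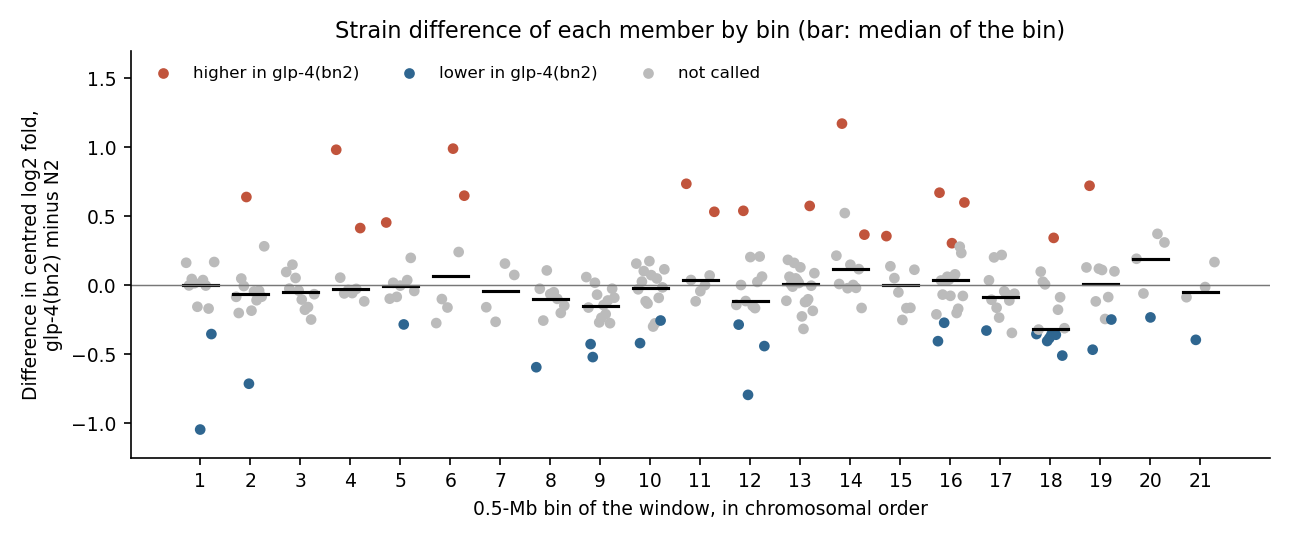
Difference in centred log2 fold, *glp-4(bn2)* minus N2, for the members in each of 21 consecutive 0.5-Mb bins in chromosomal order (1 point per member, bar at the median of the bin). Lower calls occur from bin 1 to bin 21 and higher calls from bin 2 to bin 19, and bins 3 and 7 hold no call. Bin 18 (14.4 to 14.9 Mb) has the lowest median, -0.32.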

How the data were processed

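Peak lists of 6 MRG-1 immunoprecipitates, 3 of *glp-4(bn2)* and 3 of N2, were used, and the 6 inputs were not analysed here. Per the submitters' processing notes and the study's methods, reads were mapped to ce10 with Bowtie2 2.3.2 and peaks were called per replicate by MACS2 2.1.0, which kept q-values up to 0.05 and lengthened each read to 300 bp. The control used in peak calling is not given in the sources used here. Each deposited list gives a peak's position and summit, its fold enrichment (a ratio to background, computed by the authors' peak caller) and the −log10 of its p-value and q-value. A stronger background or a deeper library changes which bases pass that threshold, so called widths are not lengths of bound DNA. The lists give no read totals. A background pileup was recovered as the Poisson mean that makes the common p-values tail probabilities of whole numbers, and it matched 70.0 to 80.7% of the p-values with a −log10 up to 60 (tolerance 0.0002 on the −log10 scale).

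Peaks were merged at an overlap of 1 bp. Differences between strains of 1 value per sample were tested with exact permutation tests, and members against other shared sites with exact sign-flip permutation tests over the 6 samples. Sites were compared with limma 3.58.1 (R 4.3.3) on log2 fold without pseudocount, other steps used Python 3.11.15, and the procedures were tested on simulated data. No 2 lists held identical peaks. Named sites are the 5 with the highest lowest percentile, up to 5 per direction with the largest called differences, those at each limit of the rule, the ends of the widest gap and the closest pair, and the 3 with the lowest percentile. Other sites that the text gives were picked after their values were seen. The members, the comparison regions and the lists were chosen with earlier results of these data known. Alternatives covered the peak threshold, the overlap, equal list lengths, the width limit, the centring, the fold summary, the trend, the replicate block and leaving out each sample. No genome or annotation of ce10 was used, so no sequence and no gene is given at any site.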

Additional observations from a re-analysis of the deposited data

How the results depend on the processing

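Of the alternatives with all samples kept, 63 of 74 left the result as reported. For a tested difference this means the same direction and the same side of 0.05. For a count of members it means a value within a set factor of the reported count, with no test. Tests of 3 against 3 samples could not pass 0.05, so only their direction could change. With no width limit the median fold percentile became -0.499 points against the II centre and 1.51 points against the III centre. The median bases per site against the II centre passed the test with q-values of at most 0.001 (103 bp) and with an overlap of 150 bp (129 bp), and became -75.4 bp with q-values of at most 1e-05 and -595 bp with no width limit. Against the III centre it became -62.6 bp with q-values of at most 1e-05, -36.9 bp with equal numbers of peaks per list and -876 bp with no width limit. With no width limit both differences passed the test in the opposite direction, members having fewer bases (adjusted exact permutation p = 0.0375 each). The number of members with a lower relative fold was 11 with centring on autosomal sites, 44 with centring on all peaks and 14 on within-list percentiles, against 25 as reported. The cause of these changes was not tested.

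With a sample left out and the sites merged again, 43 of 72 results were left as reported by the same criteria. The percentile difference ran between 0.956 and 1.86 points against the II centre, 3.57 and 4.78 against the III centre and 14.0 and 17.3 against the V arms, and the difference in bases against the V arms between 1512 and 1719 bp. None of these could pass 0.05, since 5 samples allow too few sign patterns. The adjusted exact permutation p for the II centre percentile was 0.188 to 0.438 without *glp-4(bn2)* replicate 1 or any N2 replicate, above the 0.075 to 0.125 of the other 3 comparisons. Peaks per member differed by -0.00725 to 0.0976 between the strains, and members with a lower relative fold numbered 12 to 31.

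Deviations of same-numbered samples correlated at -0.04, -0.06 and -0.01, and so showed no pairing by replicate number. Replicate 2 of each strain nevertheless had the fewest peaks (7303 in *glp-4(bn2)*, 7073 in N2). The labels do not state whether same-numbered samples were handled together. With the replicate block 18 members were higher and 20 lower, and 17 of the 18 higher and 20 of the 25 lower members kept their calls. The 6 that lost them, the higher site chrV:14691995-14696672 among them, had limma adjusted p-values of 0.0555 to 0.0977. No other result changed its call with the block. The paired test of the 3 values per sample allows no p below 0.25. The background pileup was lower in every *glp-4(bn2)* list than in any N2 list, and its part in the called bases was not tested. The p-values over sites come from 3 samples per strain, and site borders come from calls.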
